A study of Mus musculus with 8 samples.

Results

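The 76 cytosolic ribosomal protein genes of the mouse genome were examined as a set of promoters that are in use in every cell type of the brain. They were taken from 21887 protein-coding genes of the mm10 build by their symbols: every Rpl or Rps followed by a number, with a closing a or x allowed, together with Rplp0, Rplp1, Rplp2 and Rpsa. They comprised 46 genes for proteins of the large subunit and 30 for proteins of the small subunit. Chromatin accessibility was measured by ATAC-seq, in which the transposase Tn5 inserts sequencing adapters into open DNA, in 8 libraries from C57Bl/6J mice. Both Fn14 groups were untreated littermates aged 27 postnatal days, 2 libraries from Fn14 KO mice and 2 from Fn14 WT mice, and came from coronal slices of frozen brain with cortex, hippocampus and dLGN (dorsal lateral geniculate nucleus, where the thalamus relays visual input to the cortex). The other 4 libraries came from microdissected dLGN of C57Bl/6J mice aged 32 postnatal days, fed from postnatal day 20 with PLX chow or with control chow, 2 libraries each. The PLX chow carried a compound, spelled PLX5562 in the labels, that was given to remove microglia. Section and dLGN libraries therefore differed in tissue, age and preparation at once, and these cannot be told apart. The labels do not state that the 2 libraries of a group came from separate animals, so every p-value measures only the spread between these libraries.

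The cytosolic ribosome has a small subunit, which binds the mRNA and decodes it, and a large subunit, which joins the amino acids. Its proteins are needed in near equal amounts, and most are encoded by a single active gene with a short, CpG-rich promoter that is transcribed in all cells. Transcription of these genes typically begins within a run of pyrimidines, so that their mRNAs carry a 5′ terminal oligopyrimidine (TOP) tract, through which the kinase mTORC1 and the RNA-binding protein Larp1 control their translation. Most also have many processed pseudogenes, copies of the spliced mRNA elsewhere in the genome. ATAC-seq reads the openness of the promoter and not the amount of mRNA or protein.

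The deposited lists held 248989 to 299822 peaks per library, which merged into 192168 to 218214 separate regions. Tnfrsf12a, the gene for Fn14, had no peak over its start in either KO library, while the highest −log10 p there was 13.6 and 8.02 in the WT libraries and 10.0 to 25.3 in the dLGN libraries. For each gene the highest −log10 p and the highest fold enrichment of any peak within the gene body and 1000 bp on either side were taken. Because the lists differ in reach (the strongest peak of a list had a −log10 p of 826 to 935 in the section libraries and 2012 to 2723 in the dLGN libraries), genes were compared by their percentile within a library, where 100 is the strongest of the 15751 protein-coding genes with a peak in all 8 libraries. A difference was called at a limma adjusted p of at most 0.05 over all 15751 genes, fitted on ranks turned into normal scores.

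Every one of the 76 ribosomal protein genes had a peak in all 8 libraries, against 72% of protein-coding genes. The members are short genes, 982 to 11774 bp long with a median of 3169.5 bp, against a median of 17169 bp for all protein-coding genes, so their windows are shorter than those of most genes. In 38 of the 76 the window held exactly 1 region in each library. For 75 of them the strongest region was the same stretch of DNA in all 8 libraries. For 56 it met no window of another protein-coding gene, and the other 20 shared it with a neighbour, for example Rpl12 with Lrsam1, Rpl15 with Nkiras1 and Rpl7a with Med22.

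Promoter sequence from RefSeq (assembly GRCm38.p6, the mm10 build) was at hand for 56 of the 76 genes, as 250 bases before to 50 bases after the annotated start. The first pair below belongs to the most strongly and the most weakly ranked genes with such an entry, Rpl15 (chr14:18270967-18271046, minus strand) and Rpl19 (chr11:98026650-98026729, plus strand). Rplp2 (chr7:141447591-141447670, plus strand) stands for the ribosomal stalk. The last 4 are genes whose rank differed between tissues under both peak measures, as described further on: Rps24 (chr14:24490618-24490697, plus strand), Rps25 (chr9:44407654-44407733, plus strand), Rpl27a (chr7:109519135-109519214, plus strand) and Rps15a (chr7:118116128-118116207, minus strand). Each line gives 60 bases before and 20 bases from the start, 5′ to 3′, with the unbroken run of C or T that covers the first transcribed base in capitals.
Rpl15: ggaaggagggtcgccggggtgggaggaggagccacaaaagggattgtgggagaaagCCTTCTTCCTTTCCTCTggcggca
Rpl19: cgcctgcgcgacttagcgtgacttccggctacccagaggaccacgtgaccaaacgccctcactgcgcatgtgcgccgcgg
Rplp2: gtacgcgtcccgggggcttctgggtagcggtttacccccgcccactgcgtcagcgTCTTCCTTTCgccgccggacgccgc
Rps24: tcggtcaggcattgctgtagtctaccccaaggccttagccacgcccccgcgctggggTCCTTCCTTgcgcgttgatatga
Rps25: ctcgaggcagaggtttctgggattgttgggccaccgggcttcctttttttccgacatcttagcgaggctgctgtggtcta
Rpl27a: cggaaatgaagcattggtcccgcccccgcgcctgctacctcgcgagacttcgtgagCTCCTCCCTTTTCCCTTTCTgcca
Rps15a: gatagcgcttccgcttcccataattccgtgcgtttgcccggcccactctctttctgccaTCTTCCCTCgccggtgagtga
The run measured 17 bases in Rpl15, 20 in Rpl27a, 10 in Rplp2 and 9 in Rps24 and Rps15a, whereas in Rpl19 and Rps25 the annotated first base was not a C or T. The annotated start is a single position, and a true start a few bases away would move a gene in or out of this count.

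A run of 8 or more C or T over the start was present in 15 of the 56 promoters (26.8%), in 3.48% of 17492 protein-coding promoters and in 1 of 69 promoters of mitochondrial ribosomal protein genes (1.45%). The run was counted on both sides of the start, and only its part from the start onward can become a TOP tract. The 15 were Rpl14, Rpl15, Rpl27a, Rpl28, Rpl35, Rpl38, Rpl7a, Rplp2, Rps10, Rps15a, Rps18, Rps24, Rps27, Rps6 and Rps9. The longest run, 21 bases with 7 of them from the start onward, was in Rpl7a. The stricter form, a C at the start followed by 4 or more C or T, was found in 12 of 56 (21.4%), in 2.17% of all promoters and in 0 of 69 mitochondrial ribosomal protein promoters. Motifs were searched by their letters on both strands of the 300 bases, and none of them contains the letters of another. The ETS/GABP motif CCGGAAG occurred in 22 of 56 members (39.3%), 34.8% of the mitochondrial set and 11.9% of all promoters. The YY1 motif AAGATGG occurred in 9 members (16.1%), 18.8% of the mitochondrial set and 6.35% of all. The palindrome of the ZBTB33/BANP type was present in 5 members (8.93%), namely Rpl12, Rpl26, Rps19, Rps28 and Rps6, and in 0.726% of all promoters. TGACGTCA, the cyclic AMP response element, was also present in 5 members (8.93% against 2.33%), and Rpl26 held both. The SP/KLF motif GGGCGG was found in 58.9% of members and 46.3% of all promoters, and the NF-Y motif CCAAT in 32.1% and 39.2%. The E-box CACGTG was found in 8.93% and 7.91%, and the TATA box TATAAA in 10.7% and 13.3%. Against the promoters of the 12529 tested genes alone the direction turned for 3 motifs, with SP/KLF in 60.4%, the E-box in 9.65% and the TATA box in 7.97% of them. It held for the others, with the ETS/GABP motif in 15.5%, YY1 in 6.60%, the ZBTB33/BANP type in 0.966%, the cyclic AMP response element in 2.97%, NF-Y in 38.5% and the run of C or T in 3.96% of the tested genes' promoters. Median GC content was 57.5% in members, 56.3% in all promoters and 60.3% in promoters of the genes tested. The observed-to-expected ratio of CpG was 0.890 in members against 0.577 in all promoters (0.728 in promoters of the genes tested). These shares describe letters in a window and no test was made on them.

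**Figure D1:**
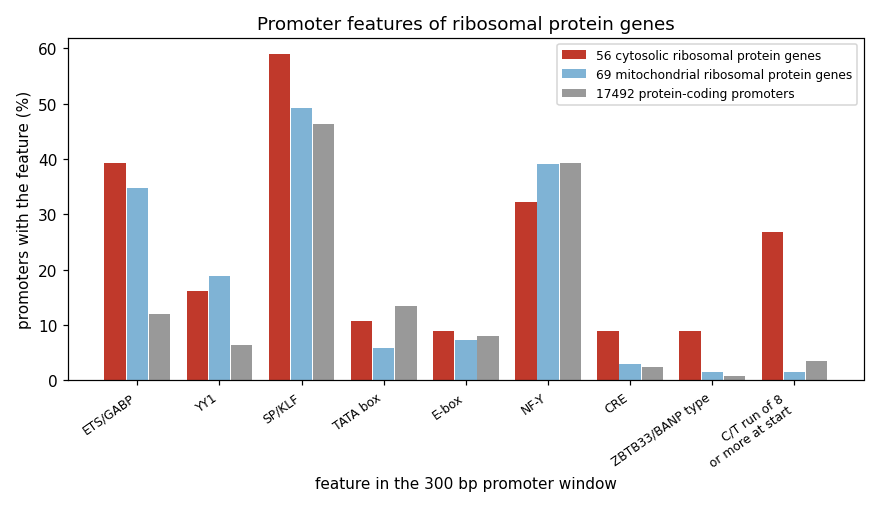
Percent of promoters that hold each motif or a run of 8 or more C or T over the start, in 56 cytosolic ribosomal protein genes (red), 69 mitochondrial ribosomal protein genes (blue) and 17492 protein-coding genes (grey). The C/T run stood at 26.8% in the cytosolic set against 1.45% and 3.48%, while the ETS/GABP motif was frequent in both ribosomal sets (39.3% and 34.8%).

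The strongest peak sat at the start. Its summit lay a median of 43.5 bp upstream of the annotated start (−43.5 bp, quartiles −81.1 and 7.88 bp), with 40 members upstream and 16 downstream. It was within 100 bp of the start in 40 of 56 members (71.4%), against 45.8% of 12529 tested genes with a start, and within 250 bp in 48 (85.7% against 58.8%). Over the 8 libraries the summit of a member moved by a median of 27 bp (35 bp over all genes), and in 46 of 56 it stayed within a range of 100 bp. Only 3 members had it beyond 1000 bp. In Rpl4, whose product lines the peptide exit tunnel, the summit was 5903 bp downstream, inside the window of the neighbouring Snapc5. In Rpl22 it was 1351 bp downstream. In Rpl18 it lay upstream (−2765.5 bp), but the gene interval of the same assembly begins 2604 bp upstream of the start in the promoter table. This summit thus lies near another annotated end of Rpl18, and the strongest region also meets the window of Sphk2.

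A few members changed the place of their strongest summit between libraries. Rpl41, which encodes one of the shortest eukaryotic proteins, was the only gene whose strongest region was not the same in all libraries. Its summit lay 1335 to 1344 bp downstream of the start in all 4 section libraries and 21 to 28 bp upstream in all 4 dLGN libraries (−28 to −21 bp), and its window meets that of Zc3h10. Rpl38 had its summit at −26, −4 and −25 bp in KO 1, KO 2 and WT 1, and between 543 and 555 bp downstream in WT 2 and the 4 dLGN libraries. Rps23 had it at −270 and −261 bp in the PLX libraries and between 7 and 21 bp downstream in the other 6. Rpl39 had it between −302 and −289 bp in PLX 2 and both control libraries and between −30 and −21 bp elsewhere. Other members also differed between libraries of a group. Rps19 had it at −423 and −479 bp in PLX 1 and control 1 and between −137 and −118 bp elsewhere. For Rplp2 it was at −45 and −52 bp in WT 1 and control 1 and between −362 and −339 bp elsewhere. Within one broad region the highest point can shift between neighbouring maxima of similar height, and these positions carry no error of their own.

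**Figure D2:**
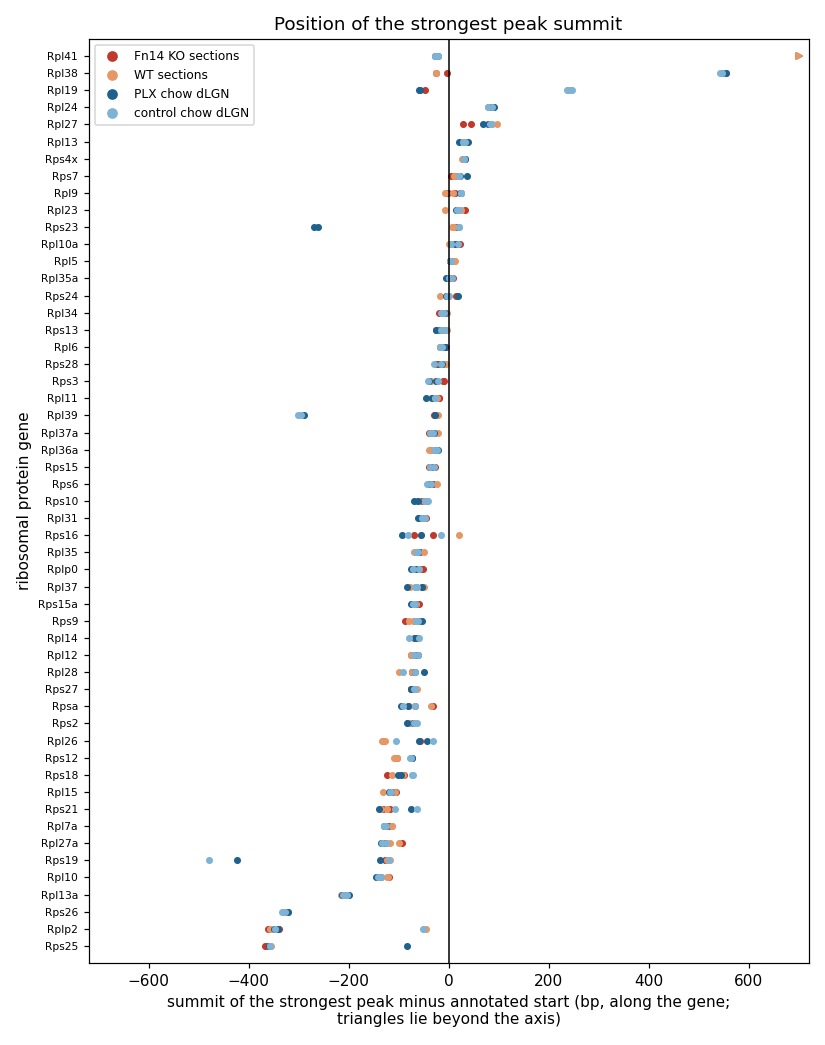
Distance in bp from the annotated start to the summit of the strongest peak, along the direction of the gene, for each ribosomal protein gene with a start (rows) in each of 8 libraries (points coloured by group). The 3 genes with a median beyond 700 bp (Rpl18, Rpl22 and Rpl4) are not drawn, and triangles mark Rpl41 summits beyond the axis; most points gather just upstream of 0.

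As a level, the members ranked above the middle of all genes with a wide spread. The median over the 76 genes of their median percentile was 65.1, with 54 genes (71.1%) above 50, 20 above 75, 9 above 90 and 1 below 25. Genes of the large subunit had a median of 63.5 and those of the small subunit 68.1. By comparison the median was 55.5 for 78 mitochondrial ribosomal protein genes, 70.2 for 40 translation factors and 73.2 for 32 ribosome biogenesis genes. Counted among all regions of a library rather than among genes, the members' strongest regions had a median rank of 4156 to 4530.5 in the section libraries and 5916.5 to 7944.5 in the dLGN libraries.

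**Figure D3:**
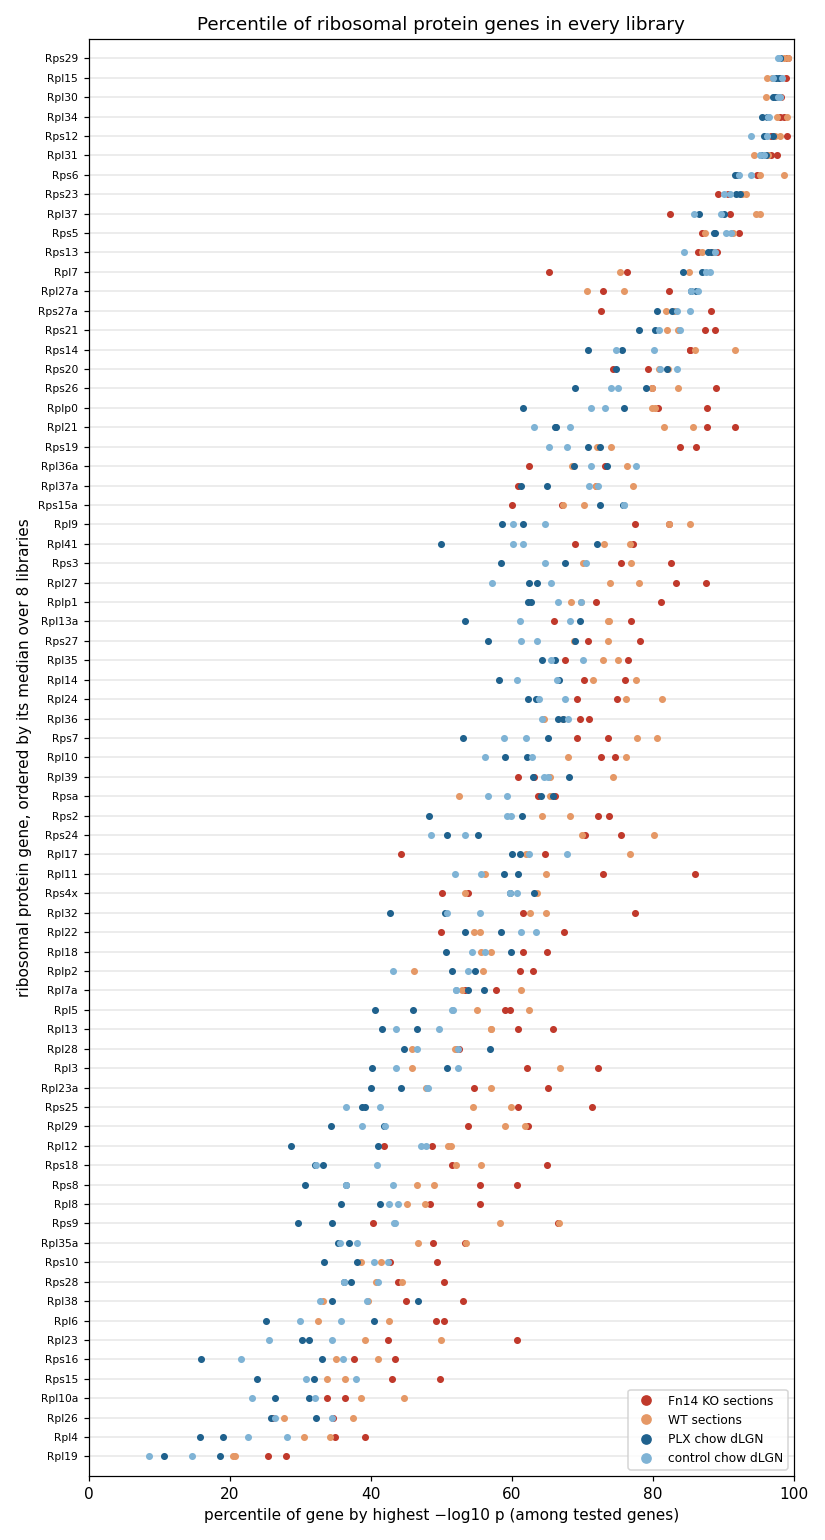
Percentile of ribosomal protein genes (all members but a few that are not shown) by highest −log10 p in each of 8 libraries (points coloured by group), ordered by the median over the libraries. The order runs from Rps29 (98.3) to Rpl19 (19.5), and for many genes in the middle of the plot the blue dLGN points lie left of the red and orange section points.

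Among the highest members were Rps29, Rpl15, Rpl30, Rpl34, Rps12, Rpl31 and Rps6, in this order. Rps29 encodes a small zinc-binding protein of the small subunit. Its −log10 p was 512 and 485 in the KO libraries, 590 and 410 in WT, 911 and 794 in PLX and 1099 and 902 in control, and its percentile lay between 97.8 and 99.2 in every library. Rpl15, a large-subunit protein, ranked at percentiles 98.0 and 98.9 (KO), 96.1 and 96.9 (WT), 97.5 and 97.9 (PLX) and 97.1 and 98.4 (control). Rps6, the substrate of the S6 kinases downstream of mTORC1, was at 92.0 and 94.8 in KO, 98.6 and 95.3 in WT, 92.0 and 91.7 in PLX and 92.3 and 94.0 in control. These genes kept to a narrow band near the top in all groups, and the neighbours in their order differed by less than the spread of each over the libraries.

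Rpl6, Rpl23, Rps16, Rps15, Rpl10a, Rpl26, Rpl4 and Rpl19 stood lowest. For Rpl19 the −log10 p reached 65.3 and 46.2 in the KO libraries, 35.8 and 28.2 in WT, 22.9 and 44.7 in PLX and 45.7 and 23.4 in control, and its region ranked below 50000 in PLX 1 and control 2, the only such case among the members. Its percentile ran from 8.60 in control 2 to 28.0 in KO 1. Rpl26, a substrate of the ufmylation system on the large subunit, ranged from 26.2 to 37.4 and Rpl4 from 15.7 to 39.1. All 3 carried a called peak in every library. For Rpl4 this peak is the distant one near Snapc5, and in the window around its own start Rpl4 stood at 17.03 in KO, 19.2 in WT, 7.93 in PLX and 10.1 in control (group means of the percentile).

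Among the stalk proteins, which recruit the elongation factors, Rplp0 ranked at 77.9, Rplp1 at 69.1 and Rplp2 at 54.3 (medians over 8 libraries). Rps27a, which is made as a fusion with ubiquitin, ranked at 82.9. The 4 X-linked members had medians of 72.2 for Rpl36a, 65.4 for Rpl10, 64.8 for Rpl39 and 59.7 for Rps4x. Of the genes named here for Diamond-Blackfan anaemia, a failure of red cell production caused by loss of 1 ribosomal protein gene copy, Rps26 (79.4) and Rps19 (72.3) were the highest of 9. Rpsa, also known as a laminin receptor, ranked at 64.0, and Rpl38, which is known for its role in the translation of Hox mRNAs, at 39.5. Region widths of the members had a median per library of 841.5 to 1040.5 bp against 795 to 1025 bp for all genes tested. They varied widely between members, for example from 232 to 2181 bp in PLX 2. The widest was Rpl7 (2181 to 2369 bp), whose region also meets the window of Rdh10.

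No ribosomal protein gene passed the test between Fn14 KO and WT sections. By limma 0 of 76 members were called in either direction, against 12 higher genes (0.0762%) and 5 lower genes (0.0317%) among all 15751. At an unadjusted p under 0.05 limma gave 4 higher members (7.54% of all genes) and 2 lower (7.76% of all genes). When genes were ranked by fold enrichment limma again called 0 members (all genes 0.152% higher and 0.0254% lower), with 1 higher (6.51%) and 6 lower (5.79%) at an unadjusted p under 0.05. The 2 KO libraries lay above both WT libraries in 24 members (31.6%, all genes 21.5%) and below both in 14 (18.4%, all genes 22.3%). That lean turned when fold enrichment set the rank, with 10 above (all genes 18.2%) and 20 below (all genes 22.5%). The median difference over the members was 1.25 percentile points by −log10 p and −1.26 by fold enrichment. With 1 library left out fewer libraries have to be ordered, and the shares of all genes rise too. Without WT 1 the count above was 39 (51.3%, all genes 35.3%). The count below was 23 without KO 1 (30.3%, all genes 36.1%), 24 without KO 2 (31.6%, all genes 39.0%) and 26 without WT 2 (34.2%, all genes 34.9%). On simulated data with the same groups, the highest −log10 p of 200 genes was shifted. Limma recovered a shift of 1 log2 unit in this value for 0 of 200 changed genes and a shift of 2 log2 units for 149 of 200. The smaller shift in −log10 p was thus not detectable with 2 libraries a group, and a shift in openness itself was not simulated.

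The largest difference among members was in Rpl11, which with Rpl5 and the 5S RNA binds Mdm2 and stabilises p53. Its percentile was 85.9 and 72.9 in the KO libraries and 64.8 and 56.3 in the WT libraries, a difference of 18.9 points (normal score 0.58 ± 0.16 SE, limma adjusted p = 0.159). Rps19, the gene most often mutated in Diamond-Blackfan anaemia, stood at 83.9 and 86.1 in KO and at 72.1 and 74.1 in WT (limma adjusted p = 0.156). The libraries of the groups did not overlap for either gene, and neither difference passed the adjustment. Rpl38, Rpl6 and Rps15 were 12.6, 12.3 and 11.3 points higher in KO with limma adjusted p-values of 0.332, 0.371 and 0.336. In the other direction Rpl37 was at 82.5 and 90.9 in KO and 94.7 and 95.2 in WT (limma adjusted p = 0.187), and Rpl37a, Rpl39 and Rps7 had differences of −8.14, −7.87 and −7.66 points by their group means. By −log10 p all 3 stalk genes had both KO libraries above both WT libraries, which held for 21.5% of all genes, with differences of 4.04 points for Rplp0, 7.52 for Rplp1 and 11.0 for Rplp2 that did not pass the test (limma adjusted p = 0.639, 0.407 and 0.356). By fold enrichment Rplp0 had both KO libraries below both WT libraries (−2.76 points), while Rplp1 and Rplp2 kept theirs above (3.32 and 6.49 points). Rps2 is the member nearest to Tnfrsf12a on chromosome 17, 1040672 bp away, and was at percentiles 73.8 and 72.2 (KO) and 68.2 and 64.3 (WT).

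No ribosomal protein gene passed the test between PLX and control chow dLGN either. By limma 0 of 76 members were called, against 0 higher genes (0%) and 3 lower genes (0.019%) in all. At an unadjusted p under 0.05 limma gave 0 higher members (1.17% of all genes) and 1 lower, Rpl12 (1.23% of all genes). Ranked by fold enrichment, limma called 0 members (all genes 0% higher and 0.00635% lower) and gave 0 higher (1.43%) and 3 lower (1.42%) at an unadjusted p under 0.05. Both PLX libraries lay below both control libraries in 22 members (28.9%, all genes 16.4%) and above both in 6 (7.89%, all genes 15.3%). With fold enrichment as the rank, 21 lay below (27.6%, all genes 15.7%) and 5 above (6.58%, all genes 15.3%). The median difference over the members was −1.34 points by −log10 p and −2.30 by fold enrichment. The lean by −log10 p rested on PLX 1, in which the member median was 58.5, against 62.3 in PLX 2 and 62.3 and 60.0 in the control libraries. Single libraries were left out only with genes ranked by −log10 p, so this was not examined for the lean by fold enrichment. Without PLX 1 the median difference was −0.12 points, with 23 members above both control libraries (30.3%, all genes 34.3%) and 28 below (36.8%, all genes 34.0%). Without PLX 2 the members below numbered 46 (60.5%, all genes 37.1%), without control 1 they numbered 34 (44.7%, all genes 31.0%) and without control 2 they numbered 38 of 76 (all genes 31.5%). Those above numbered 16 without control 1 (21.1%, all genes 30.2%) and 14 without control 2 (18.4%, all genes 30.3%). In the window around the start, 11 of 56 members lay below (all genes 15.9%) and 6 above (all genes 15.4%). In this comparison limma recovered a simulated shift of 2 log2 units in the highest −log10 p for 159 of 200 genes and a shift of 1 log2 unit for 0.

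Rpl12, part of the base of the stalk, had percentiles of 28.7 and 41.1 in the PLX libraries and 47.1 and 47.9 in the control libraries (difference −12.6 points, limma adjusted p = 1). Rps9 was at 29.7 and 34.6 against 43.3 and 43.4, and Rpl37a, Rpl5 and Rpl4 differed by −8.54, −8.32 and −7.94 points by their group means, each with a limma adjusted p of 1. On the higher side Rpsa stood at 64.2 and 65.9 in PLX and 59.3 and 56.6 in control, and Rpl11, Rps19, Rpl7a and Rps23 were 6.01, 5.08, 2.91 and 1.55 points higher. None of these 10 differences passed the test. Of 12 microglia markers 7 had a peak in all libraries, and limma called 0 of the 7 (0 higher and 0 lower at an unadjusted p under 0.05). Their summed highest −log10 p, over all 12, was 404 to 486 in PLX and 513 to 560 in control. The mean sum in PLX was 0.83 times that in control for the microglia list and 0.81 times for all tested genes, and in percentile the 7 tested markers had a median difference of 2.77 points (PLX minus control). Tmem119, Siglech, Trem2, C1qa and Aif1 lacked a peak in at least 1 of the 8 libraries. The part of the cell mix in the members' values was not tested, and a share of cells and an openness per cell cannot be told apart in bulk nuclei.

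**Figure D4:**
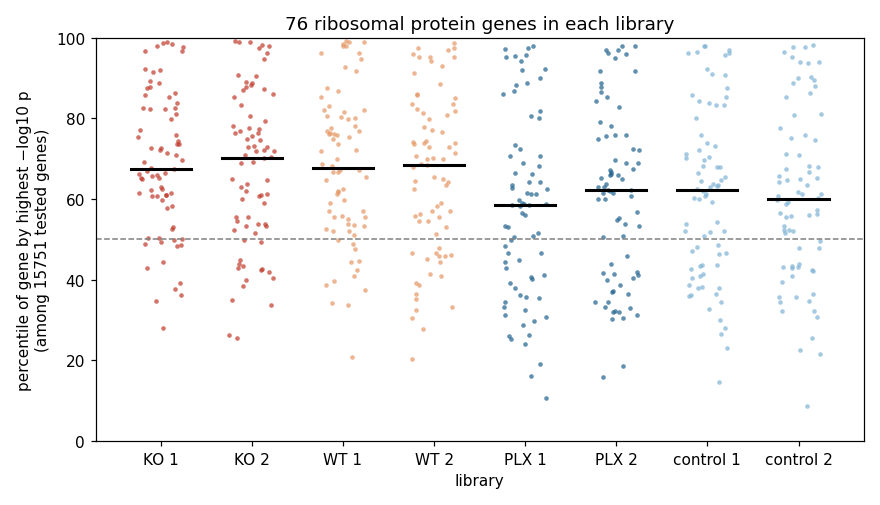
Percentile of the 76 ribosomal protein genes by highest −log10 p in each library (points), with the median as a black bar and the middle of all 15751 tested genes as a dashed line. The 4 section libraries have medians of 67.5 to 70.3, the 4 dLGN libraries medians of 58.5 to 62.3.

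Between the 4 dLGN and the 4 section libraries the members ranked lower in dLGN when −log10 p set the rank. Limma called 35 of 76 lower in dLGN (46.1%), against 21.5% of all genes, and 3 higher (3.95%), against 20.5% of all genes. The 35 comprised 21 large-subunit and 14 small-subunit genes, and 27 of them had a strongest region that met no other gene's window. In 64 members the mean percentile was lower in dLGN (84.2%, all genes 52.9%) and in 12 higher (15.8%, all genes 47.1%), with a median difference of −8.53 points over the members and −0.53 over all genes. The 4 dLGN libraries lay below all 4 section libraries in 28 members (36.8%, all genes 18.2%) and above them in 2 (2.63%, all genes 18.6%). In the window around the start 23 of 56 members were lower (41.1%, all genes 19.1%) and 2 higher (3.57%, all genes 19.4%).

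The difference depended on which value of the peak was ranked. By fold enrichment limma called 9 members lower (11.8%, all genes 13.4%) and 6 higher (7.89%, all genes 13.4%), and the median difference was 0.21 points. Short genes as a whole also ranked lower in dLGN by −log10 p. Of 4301 tested genes no longer than the longest member, 29.8% were called lower and 13.9% higher, and their median percentile was 45.0 to 48.4 in the section libraries and 39.2 to 41.6 in the dLGN libraries. The strength of the evidence also moved with the tissue, since the median −log10 p over all tested genes was 75.7 to 126 in the section libraries and 126 to 180 in dLGN, and the median fold enrichment 8.94 to 10.0 against 12.3 to 13.1. Sequencing depth was not analysed here, and the part of depth, of the preparation of the nuclei and of gene length in the difference was not tested.

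The count also depended on the libraries. Without PLX 1 limma called 20 members lower (26.3%, all genes 14.2%), and without control 2 also 20 (26.3%, all genes 14.1%). It called 23 without WT 1 (30.3%, all genes 16.7%) and 23 without control 1 (30.3%, all genes 14.2%). Without any one of the other 4 libraries it called 28 to 37, where all genes gave 16.8% to 21.5%. With only the WT and control chow libraries, 2 against 2, it called 8 lower (10.5%, all genes 4.41%) and 1 higher (1.32%, all genes 6.41%) with a median difference of −5.01 points. With those 4 libraries ranked by fold enrichment it called 0 lower (all genes 3.13%) and 1 higher (all genes 3.53%) with a median difference of 0.62 points. The direction of the median by −log10 p held in each of these, while the median by fold enrichment stayed close to 0.

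**Figure D5:**
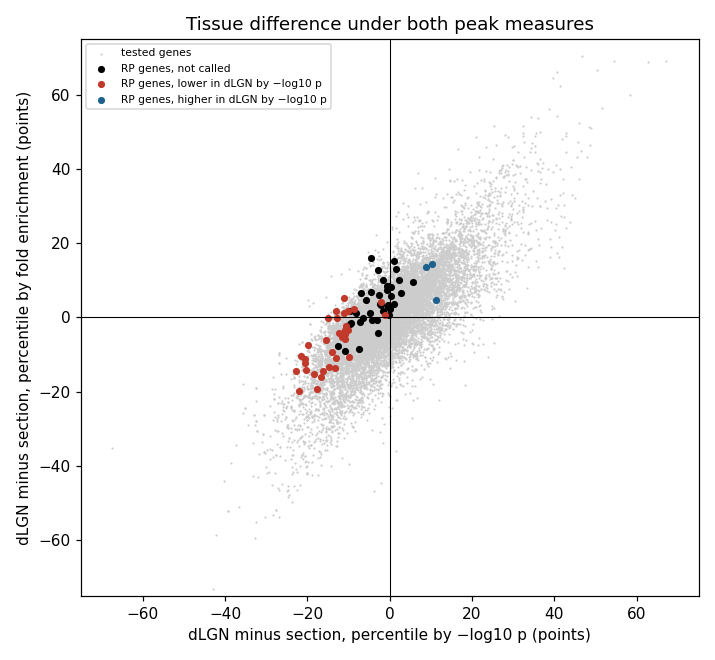
Difference in percentile between the mean of 4 dLGN and the mean of 4 section libraries, by −log10 p on the horizontal axis and by fold enrichment on the vertical axis, both in percentile points, for 15751 tested genes (grey) and 76 ribosomal protein genes (red lower and blue higher in dLGN by limma on −log10 p, black not called). Of the ribosomal protein genes 64 lie to the left of 0, with a median over all 76 of −8.53 points, yet their median on the vertical axis is 0.21 points.

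Under both measures 8 members were lower in dLGN: Rpl21, Rpl23, Rpl27, Rpl32, Rpl4, Rpl9, Rps24 and Rps25. The share of all genes lower under both measures was not counted, so no excess among the members can be read from this. By fold enrichment the share of members called lower (11.8%) was not above that of all genes (13.4%). Rps25, a small-subunit protein needed by several viral internal ribosome entry sites, ranked at percentiles 71.4 and 60.9 (KO), 59.8 and 54.6 (WT), 39.2 and 38.8 (PLX) and 41.3 and 36.5 (control). The dLGN mean was 39.0 ± 2.0 (SD, n = 4) and the section mean 61.7 ± 7.06 (SD, n = 4), and the libraries did not overlap (normal score −0.58 ± 0.10 SE, limma adjusted p = 0.00139 by −log10 p and 0.0356 by fold enrichment). Its promoter, printed above, is one of those with no C or T at the annotated start. The strongest region of Rps25 also meets the window of Trappc4. Its summit lay between −367 and −356 bp from the start in all libraries but PLX 2 (−83 bp), outside the printed bases. Rps24, a Diamond-Blackfan anaemia gene, ranked at percentiles 75.5 and 70.4 (KO), 80.1 and 70.0 (WT), 50.7 and 55.2 (PLX) and 48.6 and 53.3 (control) (limma adjusted p = 0.00151 and 0.014). In fold enrichment itself Rps24 was at 11.1, 10.0, 13.9 and 11.0 in the 4 section libraries and 12.1, 12.9, 11.5 and 12.0 in the 4 dLGN libraries. Set against the median tested gene of each library, Rps24 was above it in all section libraries and below it in all dLGN libraries.

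Rpl21 fell furthest within the upper range, from 91.6, 87.7, 81.5 and 85.8 in the section libraries to 66.3, 66.1, 63.2 and 68.3 in dLGN (limma adjusted p = 0.000445 and 0.00588). Rpl9 went from 77.4 to 85.3 in sections to 58.7 to 64.7 in dLGN (limma adjusted p = 0.000677 and 0.0441), and Rpl27 from 74.0 to 87.5 to 57.2 to 65.5 (limma adjusted p = 0.00135 and 0.00326). Rpl21 and Rpl27 belong to the large subunit, as does Rpl9, whose region also meets the window of Lias. Rpl23, another protein that can bind Mdm2, and Rpl32 differed by −17.7 and −16.7 points, with limma adjusted p-values of 0.0125 and 0.0114 by −log10 p. For Rpl4, with a difference of −13.3 points, the peak in question is the distant one near Snapc5. In the window around its own start Rpl4 was also lower (−9.13 points, limma adjusted p = 0.00371).

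Lower by −log10 p alone were, among others, Rps18, Rps9 and Rpl29, at 34.6, 37.7 and 39.3 in dLGN against 56.1, 58.0 and 59.2 in sections, with limma adjusted p-values of 0.00258, 0.0127 and 0.0023. By fold enrichment these 3 differed by −10.4, −14.3 and −7.32 points and did not pass (limma adjusted p = 0.0867, 0.169 and 0.265). Of the 35 members called lower by −log10 p, 28 also had a lower percentile by fold enrichment, as had 38 of all 76 members (50%, all genes 50.3%). At the top of the order the shifts were small: Rps29 was called lower at 97.9 ± 0.12 (SD, n = 4) in dLGN against 99.0 ± 0.26 (SD, n = 4) in sections. In the window around the start 22 of the 26 called members with an annotated start were lower as well. That window ranks the same −log10 p, often of the same peak, so the count is no separate support.

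Higher in dLGN under both measures were Rpl27a and Rps15a. The share of all genes higher under both was likewise not counted, and by fold enrichment 7.89% of members and 13.4% of all genes were called higher. Rpl27a, a large-subunit protein with the 20-base pyrimidine run printed above, had percentiles of 82.3, 73.0, 75.9 and 70.7 in the section libraries and 86.2, 85.4, 85.4 and 86.4 in the dLGN libraries (normal score 0.38 ± 0.10 SE, limma adjusted p = 0.0115 and 0.0234). Its fold enrichment was 10.0 to 12.4 in sections and 17.6 to 18.1 in dLGN. Rps15a, a small-subunit protein, was at 60.0 to 70.3 in sections and 72.5 to 75.9 in dLGN (limma adjusted p = 0.036 and 0.0449). For both genes all dLGN libraries lay above all section libraries by −log10 p. Rpl7 was higher by −log10 p alone, at 86.7 against 75.5 (limma adjusted p = 0.015), with 4.68 points and a limma adjusted p of 0.467 by fold enrichment. By fold enrichment alone Rpl15, Rpl18, Rpl31 and Rps4x were higher (limma adjusted p = 0.0044, 0.0273, 0.00446 and 0.0286) and Rplp1 was lower (0.0484), while by −log10 p these 5 were not called. For Rpl18 the sign depended on measure and window: over the whole window it was 16.0 points higher by fold enrichment and differed by −4.56 points by −log10 p (limma adjusted p = 0.307), and in the window around the annotated start it differed by −14.9 points by −log10 p (limma adjusted p = 0.00787).

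By role, 8 of the 9 genes named here for Diamond-Blackfan anaemia were called lower in dLGN by −log10 p (Rps10 was not). This stands beside 46.1% of all members, 21.5% of all genes and 29.8% of short genes. The 9 are a chosen list and need not hold every gene of this disease. By fold enrichment 1 of the 9, Rps24, was called lower, against 11.8% of all members and 13.4% of all genes. Of the 3 stalk genes Rplp0 was called lower by −log10 p, at 70.5 against 82.2 (limma adjusted p = 0.0196), and of the 4 X-linked genes Rpl10, at 60.1 against 72.9 (limma adjusted p = 0.0128). Rps27a, Rpsa, Rpl39 and Rpl36a differed by 1.56, −0.48, −0.74 and 2.67 points with limma adjusted p-values from 0.587 to 0.919. Members with a long pyrimidine run had a median difference of −4.51 points (15 genes) and those without −9.96 points (41 genes), and no test was made between them. Median differences of members with and without the ETS/GABP motif were −5.21 and −10.0 points.

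Other gene groups of protein synthesis also held more genes called lower than higher in dLGN by −log10 p. These counts stand beside 21.5% lower and 20.5% higher among all genes (29.8% and 13.9% among short genes), and by fold enrichment 13.4% in each direction. Limma called 33 of 78 mitochondrial ribosomal protein genes lower in dLGN and 6 higher (by fold enrichment 22 and 6), 12 of 40 translation factors lower and 3 higher (5 and 2), and 17 of 32 ribosome biogenesis genes lower and 1 higher (4 and 1). Of 12 genes for regulators of TOP mRNAs and mTORC1 signalling 9 were lower and 1 higher (6 and 1). Mtor itself was at 57.8 in dLGN and 78.4 in sections, and elongation factor gene Eef2 at 59.4 and 82.7 (limma adjusted p = 0.00423 and 0.000751). Eef2 was picked from the 40 translation factors after its value was seen. Eef1a1 (88.0 in dLGN and 84.7 in sections) and Pabpc1 (91.4 and 87.7) of the same list were not called. Larp1 was the 1 regulator called higher, at 50.8 in dLGN and 37.0 in sections (limma adjusted p = 0.0328 by −log10 p and 0.00356 by fold enrichment). Fau, Rps3a1 and Rack1, ribosomal protein genes that the symbols leave out, had limma adjusted p-values of 0.534, 0.133 and 0.654 by −log10 p. Among 5 tested paralogs, which are close copies with restricted or partly redundant use, 4 were lower. No test compared the cytosolic ribosomal protein genes with these groups.

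Oligodendrocyte and thalamic neuron markers ranked higher in dLGN. By −log10 p limma called 6 of 7 tested oligodendrocyte markers higher in dLGN and 0 lower, and 5 of 8 thalamic neuron markers higher and 1 lower (all genes 20.5% and 21.5%). By fold enrichment it called 3 higher and 0 lower in each list (all genes 13.4% in each direction). The summed highest −log10 p was 294 to 455 in sections and 654 to 929 in dLGN for the oligodendrocyte list, and 295 to 380 and 644 to 812 for the thalamic list. For the cortical and hippocampal list it was 190 to 278 and 250 to 374, with 1 of 6 tested genes higher and 1 lower, and Neurod2 and Fezf2 without a peak in at least 1 library. Of 7 tested astrocyte markers 2 were higher and 2 lower (sums of 420 to 604 and 708 to 817), and of 7 inhibitory neuron markers 1 was higher and 2 lower (71.8 to 233 and 140 to 239). Of 7 microglia markers Spi1 was lower and none higher (288 to 468 and 404 to 560). Sox10, Gfap and Sst also lacked a peak in at least 1 library. All of these sums were larger in dLGN on average, as was the sum over all tested genes, by 1.70 times. The ratio of the mean sums was 2.19 for the oligodendrocyte and 2.10 for the thalamic list, above that of all genes. It was below that of all genes for the astrocyte (1.51), microglia (1.32), cortical and hippocampal (1.27) and inhibitory neuron (1.09) lists, and 1.42 for the ribosomal protein genes. Over the 76 ribosomal protein genes themselves the median −log10 p was 128 to 191 in sections and 162 to 252 in dLGN. The part of cell composition in the members' lower rank was not tested.

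The width of the regions gave no called member. By limma on width rank 0 members were called in any of the 3 comparisons. Of all genes 0.197% were called wider and 0.0889% narrower between KO and WT, 0.0127% and 0.0889% between PLX and control, and 1.41% and 1.93% between dLGN and sections. At an unadjusted p under 0.05 limma gave 0 wider and 3 narrower members in KO (all genes 4.74% and 4.34%), 1 and 1 in PLX (2.05% and 2.77%), and 2 and 3 in dLGN (13.6% and 10%). By rank difference of any size, 30 members were wider and 46 narrower in KO (all genes 43.3% and 56.6%), 45 and 31 in PLX (58.2% and 41.8%), and 41 and 35 in dLGN (54.1% and 45.9%). The median width of the members' strongest region was 1040.5 and 1001 bp in KO, 937.5 and 977.5 bp in WT, 841.5 and 856 bp in PLX and 905.5 and 849 bp in control. Widths of all tested genes showed the same order of the tissues, 924 to 1025 bp in sections and 795 to 870 bp in dLGN.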

How the data were processed

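The authors ran the ENCODE ATAC-seq pipeline on mm10 with paired-end reads, multimapping 0, a peak p threshold of 0.01 and at most 300000 peaks per list, per the deposited pipeline instructions and list names, and deposited 1 peak list per library. Per the submitters' processing notes deepTools 3.5.0 was also used. For the aligner and the peak caller, names and versions: not given in the sources used here. The deposited values are a score (10 times −log10 p, at most 1000), a fold enrichment (a ratio over local background), and p- and q-values as −log10. All are values the authors computed per peak, used here only within a list. No read counts were used, so depth is unknown and no counting interval is given. With multimapping 0, reads in exons shared with pseudogene copies may be missing.

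The highest −log10 p (main) or fold enrichment of peaks meeting a gene body extended by 1000 bp (overlap of 1 bp or more) was ranked within a library, turned into normal scores and fitted with limma 3.58.1 (R 4.3.3) as 4 group means over 15751 genes, with Benjamini-Hochberg adjustment. Ribosomal protein genes and all lists were chosen with earlier results of these data known. Genes were named if called (at most 10 per direction by rank difference), otherwise if their libraries did not overlap (5 per direction), and if among the 8 highest or lowest or in a list by role. Fau, Rps3a1, Rack1, Mtor, Larp1 and Eef2 were named after their values were seen. A few genes that meet these rules are counted but not reported by name here. Scripts were tested on simulated data. Same-numbered replicates shared only a number.

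Alternatives were fold enrichment, the fold enrichment of the strongest peak, the gene body alone, a window around the start, a q filter (−log10 q of at least 2), the strongest 100000 regions, a peak in any library, summits in the window, a variance trend, a replicate block, each library left out, only WT and control chow libraries, and only members with no other gene's window. Overlapping peaks were merged into regions with Python 3.11.15 (pandas 2.3.3, numpy 2.4.6). The mm10 gene table carries no strand, so starts came from the RefSeq promoter table.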

Additional observations from a re-analysis of the deposited data

Results flagged for a closer look

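For the named members and for library medians over all members, 122 groups of 4 libraries of 1 tissue were searched for a library far from the other 3. In all 4 were found, each for a named member, where chance gives about 1 in 20. In the section libraries Rplp0 had a percentile of 87.7 in KO 1 against 79.9 to 80.7 in the others. In the dLGN libraries Rps15a had 72.5 in PLX 1 against 75.8 to 75.9, Rps2 had 48.3 in PLX 1 against 59.3 to 61.5, and Rps18 had 40.9 in control 1 against 32.03 to 33.2. Rplp0 and Rps2 remained below all section libraries in dLGN, and PLX 1 was also the library with the lowest median over all 76 members (58.5).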

How the results depend on the processing

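For Fn14 KO against WT, ranking by fold enrichment gave 10 members above (from 24) and a median difference of −1.26 points (from 1.25), and the fold enrichment of the strongest peak gave 10 and −1.03. For PLX against control the start window gave 11 members below (from 22). For dLGN against sections, limma called 6 higher and 9 lower by fold enrichment (7 and 11 not overlapping, median 0.21), 6 and 6 by that of the strongest peak (7 and 12, 0.39), 23 lower in the start window (−6.58), 1 and 8 with only WT and control chow libraries (6 and 43, −5.01), and 1 and 0 with these ranked by fold enrichment (21 higher not overlapping, 0.62). Not overlapping by fold enrichment were 14.2% of all genes above and 12.5% below. With only WT and control chow libraries all genes gave 29.5% above and 32.6% below. With these ranked by fold enrichment 27.9% of all genes lay above, against 27.6% of members. For the strongest-peak setting this share was not counted. The 2 settings with only WT and control chow libraries and the strongest-peak one were chosen after seeing the data. With each library left out, limma called 0 members in both 2-against-2 comparisons and 1 to 2 higher and 20 to 37 lower between tissues, and not overlapping were 24 to 39 above and 14 to 26 below for KO, 6 to 23 above and 22 to 46 below for PLX, and 2 to 4 above and 28 to 39 below for dLGN. A group left with 1 library is assumed to vary like the others. The member medians then ranged over 0.41 to 2.43, −2.84 to −0.12 and −9.01 to −6.85 points. The causes were not tested, apart from the smaller numbers of genes or libraries by construction. The remaining 253 values, with the gene body, q filter, strongest regions, any-library, summit and variance trend settings, stayed within 1.5 times or the replicate spread. Of single members, 515 values kept their side of the threshold, 40 lost the call and 0 reversed. Deviations of same-numbered libraries correlated at 0.145 for KO and WT and −0.0388 for PLX and control, and the replicate block called 0 and 0, 0 and 0, and 3 and 35 members, the same counts as without it. Depth is unknown, so how far it limits weak peaks cannot be given.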
